A study of Mus musculus with 5 samples.

Results

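The transcripts of the mitochondrial genome were described in single immune cells sorted from mouse brain. The members were the 37 rows of the UMI tables whose symbols start with mt-, of 52542 gene rows in all: 2 rRNA, 13 protein-coding and 22 tRNA rows. A UMI, or unique molecular identifier, marks a single captured RNA molecule. The members were read in 825 cells, which are the wells holding 1 cell with at least 500 UMIs, of 1900 wells with a cell. MARS-seq, a plate-based method that primes on poly(A) and counts the 3′ ends of RNA, was run in 5 libraries (AB5863, AB5864, AB5865, AB5867, and last AB5876). All 5 carry the same labels, which are DM-hTAU mice, 9 months of age, aPDL1 (the anti-PD-L1 antibody) and brain. DM-hTAU mice express human tau with a pair of mutations, under the tau gene's natural promoter by the study's methods. The cells were sorted for CD45 and CD11b, high for both by the methods, while the labels say brain for the tissue but describe how thymus and gut were digested. No control-treated library was analysed, nothing ties a library to a mouse, and the spread between libraries may be technical.

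The mitochondrial genome is a small circle that encodes subunits of the respiratory chain together with the rRNAs and tRNAs needed to translate them inside the organelle. Its strands are transcribed as long precursors, which are cut mostly at the tRNAs that lie between the other genes. Most mitochondrial mRNAs carry short poly(A) tails and the mitochondrial rRNAs only very short ones. The mitochondrial share of RNA is also a common measure of cell quality in single-cell data.

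Total UMIs per library ranged from 128201 to 549824, and the kept cells numbered from 68 to 314 per library, with AB5865 and AB5876 the deepest. The same 384 well barcodes were used on all 5 plates, and no pair of libraries held the same counts. Cells were put into classes by marker genes of the nuclear genome: 258 were microglia-gated, 182 MHC-class-II-gated, 118 border-macrophage-gated, 76 monocyte-gated, 31 neutrophil-gated and 29 dendritic-gated. Of the rest, 29 met several gates and 102 none. In the microglia-gated cells P2ry12 stood at 31.4 and Tmem119 at 15.8 UMIs per 10000, though both are genes of that gate. Cx3cr1, which is in no gate, stood at 35.5 there and between 3.98 and 14.1 in the other gated classes. In microglia-gated cells the 8 T or NK cell markers together had 5 UMIs and the erythrocyte and mast cell markers had 0. The B cell, astrocyte, oligodendrocyte, endothelial and neuron markers had 95, 37, 29, 26 and 3 UMIs. Fewer mitochondria and less RNA from each cannot be told apart in these counts, and with 3 spike-in UMIs in all no absolute scale was available, so every level is a share of UMIs.

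Mitochondrial transcripts made up 111029 of 1132493 UMIs in the kept cells, or 9.80%. The rRNA rows held 79.2% of these, the protein-coding rows 18.1% and the tRNA rows 2.68%. Of the 37 rows, 27 had a UMI: both rRNA rows, 12 of 13 protein-coding rows and 13 of 22 tRNA rows. The row at 0 among the protein-coding genes was mt-Nd6, a complex I subunit that is the only protein encoded on the opposite strand. Its 0 of 1132493 UMIs allows a true count of up to 3, covering counting error only. How well its RNA was captured was not tested.

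**Figure D1:**
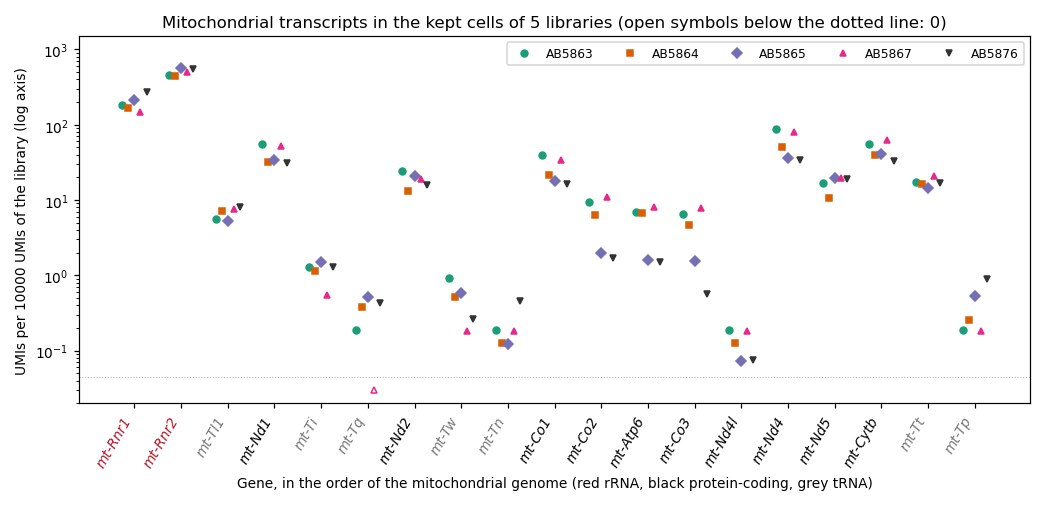
Level of each mitochondrial gene with at least 10 UMIs, as UMIs per 10000 UMIs of a library on a log axis, in the kept cells of the 5 libraries. The rRNAs lie above all other rows in every library, and the rows mt-Co2, mt-Atp6 and mt-Co3 are lower in AB5865 and AB5876 than in the other libraries. UMIs listed under similar nuclear genes are not included.

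The rRNAs of the large and small mitochondrial ribosomal subunits were the most abundant rows. The level of mt-Rnr2, the large subunit rRNA, was 452, 445, 567, 506 and 554 UMIs per 10000 in AB5863, AB5864, AB5865, AB5867 and AB5876. That of mt-Rnr1, the small subunit rRNA, was 183, 166, 216, 149 and 270 in the same order. Every library thus held more mt-Rnr2 than mt-Rnr1, at 38.8 ± 6.93 mt-Rnr1 UMIs per 100 mt-Rnr2 UMIs (SD, n = 5 libraries). Per kilobase of gene, over all kept cells, the levels were 344 and 244 UMIs per 10000 for mt-Rnr2 and mt-Rnr1, although counts of 3′ ends need not grow with length. At least 1 mt-Rnr2 UMI was found in all 825 cells.

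Among the protein-coding rows, the complex I subunit genes mt-Nd4 and mt-Nd1 and the complex III gene mt-Cytb were the highest. Over the 5 libraries mt-Nd4 was at 57.8 ± 25.2, mt-Cytb at 46.4 ± 12.2 and mt-Nd1 at 41.0 ± 11.99 UMIs per 10000 (SD), spreads that overlap. Per kilobase, over all kept cells, mt-Nd1, mt-Cytb and mt-Nd4 were at 36.1, 34.0 and 29.4. The complex I genes mt-Nd2 and mt-Nd5 were at 17.3 and 10.3, and mt-Co1, the catalytic core subunit of complex IV, at 12.4. The other complex IV genes mt-Co2 and mt-Co3 were at 4.26 and 2.34 per kilobase, and mt-Atp6, a subunit of the ATP synthase, at 3.60. Without division by length, over the same cells, mt-Nd4, mt-Cytb and mt-Nd1 were at 40.5, 38.9 and 34.6 UMIs per 10000. On that scale mt-Co1, mt-Nd5 and mt-Nd2 were at 19.2, 18.7 and 18.0. The order thus depends on the scale, and counts of 3′ ends need not grow with gene length. The smallest coding genes were nearly empty: mt-Nd4l had 10 UMIs, mt-Nd3 8 and mt-Atp8 5.

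Of the tRNA rows, mt-Tt had 1826 and mt-Tl1 had 777 of the 2972 tRNA UMIs. The rows mt-Ti, mt-Tp, mt-Tq, mt-Tw and mt-Tn had between 32 and 149, and the remaining 15 rows under 10 each. The tRNA rows with the most UMIs each start on the base after a longer gene. The same holds for mt-Tv after mt-Rnr1 and mt-Tg after mt-Co3, which had 0 and 8 UMIs. Among the rows with the most UMIs the pairs are as follows. The row mt-Tt follows mt-Cytb and mt-Tl1 follows mt-Rnr2. The ends of these pairs are shown because 3′ reads near such a border can be given to either row. The first of each pair is the last 60 bases of the longer gene and the second the whole tRNA gene, on the plus strand of GRCm38, from GENCODE. Capitals mark the longest run of A, and where runs tie the last of them is marked. The positions are chrM:15229-15288, chrM:15289-15355, chrM:2616-2675 and chrM:2676-2750.
mt-Cytb: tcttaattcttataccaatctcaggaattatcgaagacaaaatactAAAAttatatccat
mt-Tt: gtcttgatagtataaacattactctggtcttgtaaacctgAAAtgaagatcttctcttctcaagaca
mt-Rnr2: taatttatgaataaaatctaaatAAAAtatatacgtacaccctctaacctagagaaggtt
mt-Tl1: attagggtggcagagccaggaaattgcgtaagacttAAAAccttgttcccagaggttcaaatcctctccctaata

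The tRNA row mt-Tt moved with its neighbour. There were 31.9, 40.1, 35.4, 32.8 and 50.5 mt-Tt UMIs per 100 mt-Cytb UMIs in AB5863, AB5864, AB5865, AB5867 and AB5876. Across microglia-gated cells, the Spearman correlation of their levels was 0.64 over 87 cells of AB5865 and 0.82 over 90 cells of AB5876, which share a library and its depth range. For mt-Tl1 the correlation with mt-Rnr2 was 0.26 and 0.40 in the same cells, and with mt-Nd1, the gene that follows it, 0.11 and 0.30. The levels of mt-Rnr1 and mt-Rnr2 had a correlation of 0.62 and 0.78.

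Part of the mitochondrial signal may be listed under nuclear genes. By blastn of the mitochondrial genes against GENCODE transcripts, 17 nuclear pseudogenes matched at 90% identity or more over at least 100 bases. Of these, 16 are in the tables and 9 had a UMI, with 5457 UMIs together, or 4.91 per 100 mitochondrial UMIs. Gm28437 (chr1:24613189-24613971, minus strand, an unprocessed pseudogene) is identical to mt-Co3 over 783 bases. It had 2967 UMIs, while mt-Co3 itself had 208. Their last bases are shown because 1 capital base at the very end of mt-Co3 is all that lies beyond the copy. They lie at chrM:9331-9390 on the plus strand and chr1:24613189-24613247 on the minus strand of GRCm38.
mt-Co3: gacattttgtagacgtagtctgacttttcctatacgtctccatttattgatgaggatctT
Gm28437: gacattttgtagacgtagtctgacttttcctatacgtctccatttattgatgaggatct

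The split between the 2 rows differed by library. There were 13.4, 19.1, 3.39, 29.7 and 5.88 mt-Co3 UMIs per 100 Gm28437 UMIs in AB5863, AB5864, AB5865, AB5867 and AB5876. The level of Gm28437 was lowest in AB5876, at 9.56 UMIs per 10000, and between 24.8 and 48.6 in the other libraries. Gm29216, 99.8% identical to mt-Co1 over 483 bases, had 1816 UMIs beside 2178 for mt-Co1. Gm11410 (matching mt-Cytb) had 326, Gm13339 (mt-Nd2) 199, Gm13341 (mt-Co2) 110, Gm4076 (mt-Nd5) 19 and Gm11407 (mt-Nd5) 15. The counts of these rows and of the members they match are therefore uncertain.

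The libraries differed in the makeup of their mitochondrial UMIs. The mitochondrial share was 9.65%, 8.23%, 9.80%, 9.80% and 10.1% in AB5863, AB5864, AB5865, AB5867 and AB5876. The rRNA share of mitochondrial UMIs was 65.9%, 74.3%, 79.9%, 66.8% and 81.9%. The deepest libraries, AB5865 and AB5876, were the highest on this measure and AB5863 and AB5867 the lowest. For mt-Co2 the levels were 9.31, 6.26, 1.99, 10.8 and 1.69 UMIs per 10000 in the same order, and mt-Atp6 and mt-Co3 were likewise lower in AB5865 and AB5876 than in the other 3. For mt-Co3 this holds for its own row only. Its identical copy Gm28437, which took more UMIs, stood at 48.6, 24.8, 45.0, 26.6 and 9.56, so AB5865 was not low there. For mt-Nd5 the levels were 16.9, 10.7, 19.8, 19.6 and 19.1, with AB5864 the lowest.

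By depth of the single well, the rRNA share of mitochondrial UMIs in AB5863 was 61.4% in wells of 100 to 250 UMIs and 65.8% in those of 500 to 1000. In AB5876 it was 85.4% in 12 wells of 100 to 250 UMIs, 80.7% at 500 to 1000 and 82.9% above 2000. The mitochondrial share of all UMIs in wells of 100 to 250 UMIs was 20.7% in AB5865 (26 wells), 25.1% in AB5876 (12 wells) and 12.1% in AB5864, beside 10.6%, 11.6% and 8.59% at 500 to 1000. In AB5863 and AB5867 it was 9.80% and 9.96%, beside 9.69% and 9.53%. Over the kept cells alone, the Spearman correlation of mitochondrial share with UMIs per cell lay between -0.03 and 0.22 in the 5 libraries (68 to 314 cells each).

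**Figure D2:**
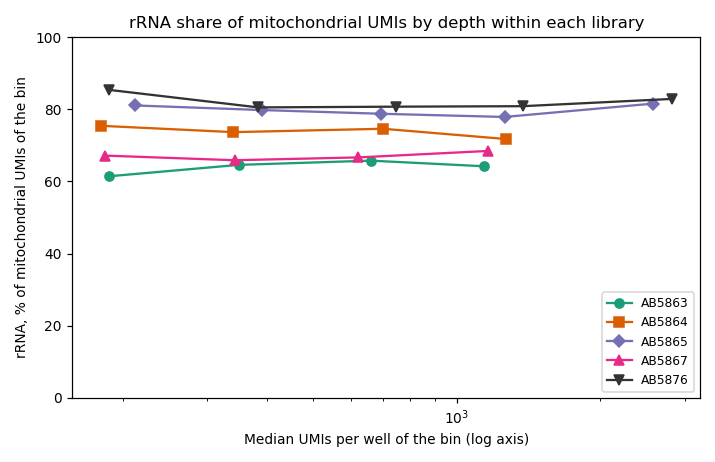
rRNA share of mitochondrial UMIs (percent) in wells binned by their UMIs (log axis), wells under 500 UMIs included, with a line for each library. The lines of AB5865 and AB5876 lie above those of AB5863 and AB5867 at every depth, and each line is nearly level.

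Wells outside the kept cells were read for comparison. The 20 empty wells held 320 UMIs, of which 31 were mitochondrial, or 9.69% (exact 95% binomial interval 6.68 to 13.5%, covering counting error only), 24 of them rRNA. The 1075 wells with a cell but under 500 UMIs held 10.4% mitochondrial UMIs, with 70.8% rRNA among these. Empty wells had 1.55 mitochondrial UMIs on average and kept cells 135. Of the 825 kept cells, 29 had over 20% mitochondrial UMIs: 11 of 118 border-macrophage-gated, 5 of 76 monocyte-gated, 4 of 182 MHC-class-II-gated and 2 of 258 microglia-gated cells, none of the neutrophil-gated or dendritic-gated ones, and 7 of the 102 that met no gate.

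Classes were compared over sums of at least 5 cells of a library. The mitochondrial share was lowest in neutrophil-gated sums, at 5.54%, 5.66% and 5.31% in AB5864, AB5867 and AB5876, or 5.50% ± 0.18 (SD, n = 3). Microglia-gated sums were at 8.49% ± 0.76 (n = 5), dendritic-gated at 8.85% ± 1.28 (n = 3) and MHC-class-II-gated at 9.02% ± 1.06 (n = 5), which differ by less than their spread. Border-macrophage-gated sums were at 11.1% and 12.9% in AB5865 and AB5876, where microglia-gated sums were at 8.83% and 8.32%. Monocyte-gated sums were at 17.3%, 13.9%, 9.65% and 11.4% in AB5863, AB5864, AB5865 and AB5876, each above the microglia-gated sum of its library. Neutrophil-gated sums did not overlap with those of any other class. Their cells had a median of 686 UMIs, against 989.5 in microglia-gated cells. These shares are of all UMIs. The 31 neutrophil-gated cells held 25126 UMIs, of which 8310 were of the 9 markers of the neutrophil gate and 1320 were mitochondrial. The mitochondrial share outside those markers was not computed. Whether neutrophil-gated sums would still lie lowest without them was therefore not tested.

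The rRNA share of mitochondrial UMIs was lower in microglia-gated sums than in each of the other 5 gated classes of the same library. It was 55.4%, 67.7%, 75.0%, 62.7% and 75.4% in microglia-gated sums of AB5863, AB5864, AB5865, AB5867 and AB5876, and 71.7%, 78.2%, 82.9%, 74.4% and 82.6% in MHC-class-II-gated sums. Within a library the difference was 10.7 ± 3.60 percentage points (SD), from 7.19 to 16.2, and positive in 5 of 5 libraries, although the 2 sets of values overlap when libraries are pooled. The difference from microglia-gated sums was 17.8 ± 3.53 points for neutrophil-gated (3 of 3 libraries), 11.7 ± 5.78 for monocyte-gated (4 of 4), 6.64 ± 6.07 for dendritic-gated (3 of 3) and 4.99 ± 2.38 for border-macrophage-gated sums (2 of 2). For dendritic-gated sums the difference ran from 0.29 to 12.4 points, with the lowest in AB5864, where the class had 5 cells.

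**Figure D3:**
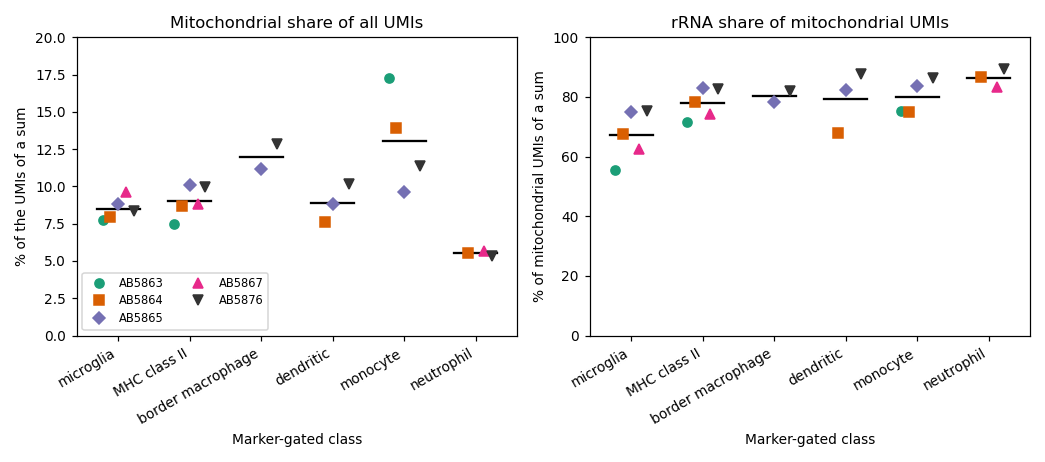
Mitochondrial share of all UMIs (left, percent) and rRNA share of mitochondrial UMIs (right, percent) in each marker-gated class; each point is the sum over a class in a library, and bars are means. Neutrophil-gated sums lie lowest on the left, and microglia-gated sums have the lowest mean on the right, where single points of the classes overlap.

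Levels were compared by kind of RNA. Between microglia-gated and MHC-class-II-gated sums, the rRNA level was 572 and 707 UMIs per 10000 on average, higher in MHC-class-II-gated sums in 5 of 5 libraries. The protein-coding level was 246 and 174, and the tRNA level 31.5 and 20.9, each lower in 5 of 5. In neutrophil-gated sums the levels were 475 for rRNA, 68.7 for protein-coding and 6.64 for tRNA rows, beside 589, 238 and 35.2 in microglia-gated sums of the same libraries, lower in 3 of 3 for each. These levels are shares of a total in which the 9 markers of the neutrophil gate held 3307 UMIs per 10000 in neutrophil-gated cells. Levels outside those markers were not computed, so the direction may depend on the scale. In the gene tests below, which are scaled otherwise, mt-Rnr1 had a log2 fold change of 0.46 and mt-Rnr2 of -0.22. The median of the tested protein-coding rows there was -1.46. In monocyte-gated sums rRNA was at 1033, beside 564, and in border-macrophage-gated sums at 964, beside 645. Their protein-coding levels were 244, beside 226 and higher in 2 of 4 libraries, and 207, beside 182 and higher in 2 of 2.

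Single genes were then tested with edgeR on 785 genes (quasi-likelihood test, TMM scaling, the library as a block, Benjamini-Hochberg adjustment over all 785), of which 13 were mitochondrial: both rRNAs, 9 protein-coding rows, mt-Tl1 and mt-Tt. In MHC-class-II-gated against microglia-gated sums, 6 of the 13 were lower and 0 higher, where 12.7% of all tested genes were lower and 5.35% higher. The genes were mt-Nd1, mt-Nd2, mt-Nd4, mt-Cytb, mt-Tl1 and mt-Tt. The median log2 fold change of the 9 protein-coding rows was -0.49, beside 0.06 for all tested genes. For mt-Cytb the microglia-gated levels were 70.2, 54.6, 44.9, 86.9 and 39.4 UMIs per 10000 in AB5863, AB5864, AB5865, AB5867 and AB5876, and the MHC-class-II-gated levels 31.0, 35.9, 34.9, 45.3 and 32.5. It was lower in 5 of 5 libraries, with a log2 fold change of -1.02 (SE 0.25, edgeR adjusted p = 0.00287). For mt-Nd4 the levels were 103, 58.4, 41.0, 98.9 and 34.8 in microglia-gated and 43.4, 43.4, 28.8, 25.2 and 32.6 in MHC-class-II-gated sums.

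The fall of mt-Nd4 was large in AB5863 and AB5867 and small in AB5876, with a log2 fold change of -1.10 (SE 0.28, edgeR adjusted p = 0.00287). The log2 fold change was -0.96 for mt-Nd1 and -0.80 for mt-Nd2 (edgeR adjusted p = 0.00580 and 0.0318), and -1.09 for mt-Tl1 and -0.93 for mt-Tt (edgeR adjusted p = 0.0167 and 0.0100). The gene mt-Co1 had a log2 fold change of -0.08 (SE 0.26, edgeR adjusted p = 0.864) and stood higher in 4 of 5 libraries by UMIs per 10000. The difference between mt-Co1 and the called genes was not tested. The rRNAs did not pass (mt-Rnr1 0.05, edgeR adjusted p = 0.929; mt-Rnr2 -0.16, edgeR adjusted p = 0.712). Both were higher by UMIs per 10000 in 5 of 5 libraries, so that the direction of mt-Rnr2 differs between these scales. With RLE instead of TMM scaling the log2 fold change of mt-Rnr1 was negative too, at -0.04. The 6 calls were made under all 4 scalings, but without AB5865 none and without AB5876 only mt-Nd4 kept its call, each with its sign unchanged.

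**Figure D4:**
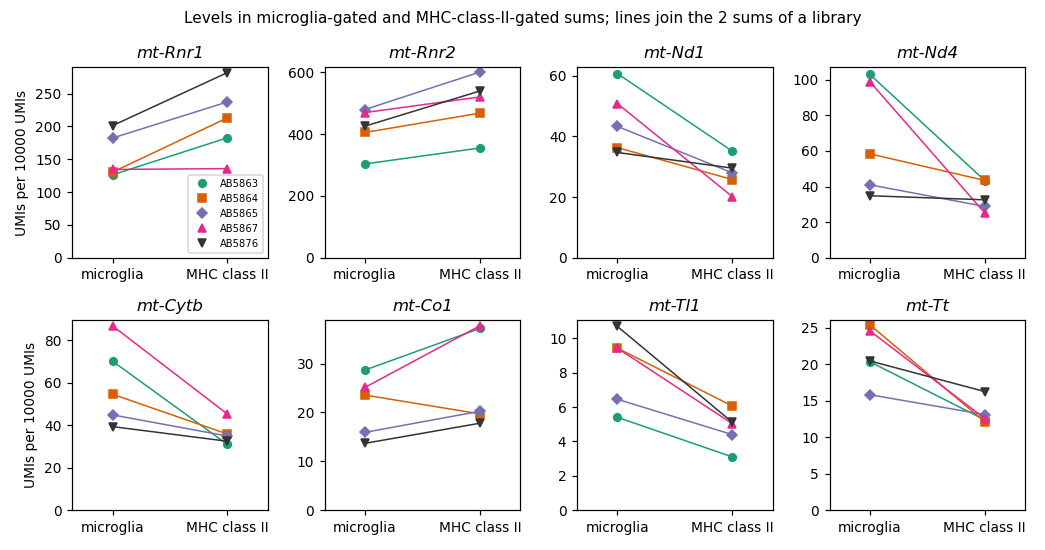
Levels of 8 mitochondrial genes, in UMIs per 10000 UMIs, in the microglia-gated and MHC-class-II-gated sums of each library; a line joins the sums of a library. The lines of mt-Rnr1 and mt-Rnr2 go up and those of mt-Nd1, mt-Nd4, mt-Cytb, mt-Tl1 and mt-Tt go down in all 5 libraries.

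The dendritic-gated comparison called the same 6 genes. All were lower and 0 higher, where 17.8% of all tested genes were lower and 6.88% higher. It shares its microglia-gated sums with the other comparisons. The mt-Tt levels were 7.31, 10.6 and 7.62 UMIs per 10000 in AB5864, AB5865 and AB5876, and 25.4, 15.8 and 20.5 in microglia-gated sums, which do not overlap. Its log2 fold change was -1.74 (SE 0.37, edgeR adjusted p = 0.000270), and that of mt-Cytb -1.45 (SE 0.33, edgeR adjusted p = 0.000656), while the median of all genes was -0.17. The log2 fold changes of mt-Nd1, mt-Nd2, mt-Nd4 and mt-Tl1 lay between -1.27 and -1.19. Those of mt-Rnr1 and mt-Rnr2 were -0.34 and -0.43 and did not pass. By UMIs per 10000, mt-Rnr1 was higher than in microglia-gated sums in 2 and mt-Rnr2 in 3 of the 3 libraries, so that their direction differs between the scales. The levels of mt-Nd1 and mt-Nd4 were higher in AB5864 (39.0 beside 36.3, and 65.8 beside 58.4) and lower in the other 2 libraries. The 6 calls were made under all 4 scalings; without AB5876 none and without AB5865 only those of mt-Cytb and mt-Tt were made. The share of all calls that were lower fell from 72.2% to 54.7% with DESeq2 and 59.2% with RLE scaling.

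In monocyte-gated sums 3 of the 13 members were lower and 0 higher, where 13% of all tested genes were lower and 5.73% higher. For mt-Cytb the levels were 53.1, 36.6, 31.1 and 25.1 UMIs per 10000 in AB5863, AB5864, AB5865 and AB5876, lower than in microglia-gated sums in 4 of 4 libraries, with a log2 fold change of -1.01 (SE 0.29, edgeR adjusted p = 0.00714). For mt-Nd5 and mt-Tt the log2 fold changes were -0.88 and -0.87 (edgeR adjusted p = 0.0379 and 0.0377), each lower in 3 of 4 libraries. For mt-Rnr2 the levels were 901, 821, 624 and 677 UMIs per 10000, above every microglia-gated sum, which ran from 304 to 480. Its log2 fold change of 0.46 (SE 0.28) did not pass (edgeR adjusted p = 0.276) and did so with DESeq2 (0.53, DESeq2 adjusted p = 0.0407). None of the 3 calls was made without AB5865 or without AB5876.

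In neutrophil-gated sums 6 of the 13 were lower and 0 higher, where 14.8% of all tested genes were lower and 10.1% higher. The median log2 fold change of all tested genes was itself -0.97, and the difference from it is given beside each member's fold change. For mt-Nd4 the levels were 13.3, 8.58 and 5.18 UMIs per 10000 in AB5864, AB5867 and AB5876, and 58.4, 98.9 and 34.8 in microglia-gated sums. Its log2 fold change was -2.48 (SE 0.45, edgeR adjusted p = 3.53e-05), or -1.51 from the median. For mt-Tt the levels were 3.56, 2.86 and 3.89, and the log2 fold change -2.28 (SE 0.52, edgeR adjusted p = 0.000888), or -1.32 from the median. For mt-Nd2 the levels were 4.44, 2.86 and 0 (log2 fold change -2.50, or -1.54 from the median). The neutrophil-gated sums held 15, 6 and 7 cells and 11251, 3498 and 7716 UMIs in AB5864, AB5867 and AB5876. The levels of mt-Nd4, mt-Tt and mt-Nd2 there thus rest on few UMIs. These 3 genes were called under all 4 scalings. The calls of mt-Cytb, mt-Nd1 and mt-Nd5, with log2 fold changes of -1.47, -1.23 and -1.62, or -0.50, -0.27 and -0.66 from that median, were not made with RLE scaling or DESeq2. Without AB5876 the calls of mt-Nd1, mt-Nd2 and mt-Nd5 were not made.

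The small subunit rRNA mt-Rnr1 did not pass in neutrophil-gated sums. Its log2 fold change was 0.46 (SE 0.33, edgeR adjusted p = 0.284), or 1.43 from the median of all genes, and it was 1.15 with both RLE scaling and DESeq2, where it passed (DESeq2 adjusted p = 0.000469). For mt-Rnr2 it was -0.22, or 0.74 from the median, and turned to 0.49 under both. With those scalings the share of all calls that were lower moved from 59.5% to 26.2% and 19.3%. By levels, mt-Rnr1 was at 163, 189 and 162 and mt-Rnr2 at 316, 283 and 312 UMIs per 10000 in AB5864, AB5867 and AB5876. In microglia-gated sums of these libraries mt-Rnr1 was at 130, 135 and 201, lower in 2 of 3, and mt-Rnr2 at 406, 470 and 426, higher in 3 of 3. The ratio was thus 56.6 ± 8.68 mt-Rnr1 UMIs per 100 mt-Rnr2 UMIs in neutrophil-gated sums, and 37.5 ± 7.41 in microglia-gated ones (SD, n = 3 and 5), and higher in each of the 3 libraries.

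In border-macrophage-gated sums none of the 13 was called with edgeR or DESeq2. With edgeR and TMM scaling, 1.53% of all tested genes were lower and 1.27% higher, and none of the 13 had an unadjusted p under 0.05. With RLE scaling mt-Rnr1 and mt-Rnr2 were higher with an unadjusted edgeR p of 0.0225 and 0.0457 (edgeR adjusted p = 0.281 and 0.426). This comparison had 2 libraries. The highest log2 fold changes were those of mt-Co3, at 0.85 (SE 0.73), and mt-Rnr1, at 0.70 (SE 0.36, edgeR adjusted p = 0.552). The level of mt-Rnr1 was 241 and 354 UMIs per 10000 in AB5865 and AB5876, beside 182 and 201. In the 2 deepest libraries fitted alone, an alternative chosen after seeing the data, it was called higher (0.63, edgeR adjusted p = 0.0361).

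**Figure D5:**
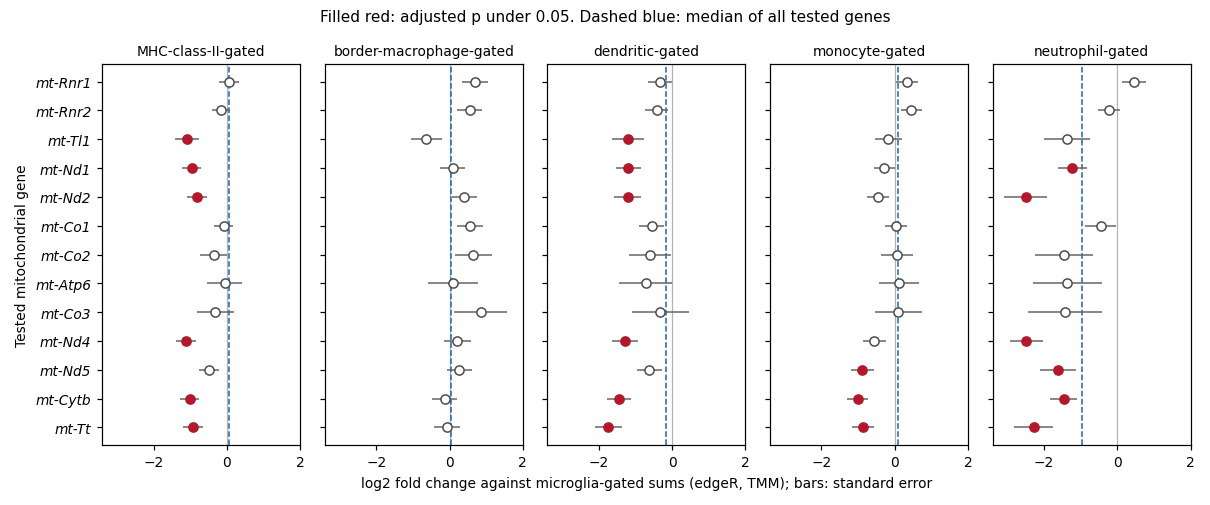
log2 fold change against microglia-gated sums (edgeR, TMM) of the 13 tested mitochondrial genes in 5 classes, with standard errors; filled points passed an adjusted p of 0.05 and the dashed line is the median of all 785 tested genes. The called genes are all lower, both rRNAs are open in every panel, and the dashed line of the neutrophil-gated panel is at -0.97.

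Neutrophil and microglia markers were present at lower levels in the classes not gated on them. The 9 neutrophil markers summed to 13.8 UMIs per 10000 in microglia-gated, 10.2 in MHC-class-II-gated, 8.53 in border-macrophage-gated, 14.6 in dendritic-gated and 11.4 in monocyte-gated cells, beside 3307 in neutrophil-gated cells. The 10 microglia markers stood at 168 in microglia-gated cells, and between 9.07 and 37.0 in the other classes. The 4 MHC class II genes were not confined to their class. They stood at 467 in MHC-class-II-gated, 456 in dendritic-gated, 301 in monocyte-gated, 243 in border-macrophage-gated, 90.1 in microglia-gated and 24.3 in neutrophil-gated cells. The 7 monocyte markers were at 48.2 in neutrophil-gated cells, beside 66.7 in monocyte-gated cells. Their part in the results was not tested. Gm42418 and Gm26917, gene models that overlap nuclear rRNA sequence, made up 454, 619, 790, 420 and 1123 UMIs per 10000 in AB5863, AB5864, AB5865, AB5867 and AB5876. They passed in 1 of 10 tests, Gm26917 in dendritic-gated sums (log2 fold change -0.87, edgeR adjusted p = 0.0383).

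The near-identical rows were tested in the same fits. Gm28437 and Gm29216 passed in none of the 5 comparisons, with log2 fold changes of -0.26 and -0.27 in MHC-class-II-gated and -1.22 and -0.83 in neutrophil-gated sums (edgeR adjusted p = 0.530, 0.514, 0.0620 and 0.145). In dendritic-gated sums they were -0.70 and -0.69 (edgeR adjusted p = 0.141 and 0.163), and Gm28437 passed there with the 2 deepest libraries alone (edgeR adjusted p = 0.0144). In neutrophil-gated sums both were lower in 3 of 3 libraries and passed with scaling to non-mitochondrial rows (edgeR adjusted p = 0.0154 and 0.0375). Over the 22 sums of library and class, genes whose level was among the most like the summed mitochondrial protein-coding level, of 263 nuclear genes with at least 500 UMIs, were Gm29216 (Spearman 0.74), Gm28437 (0.68), Lair1 (0.61) and Selenop (0.56), beside a median of 0.14 over those genes. The sums share libraries, depth and the total they are divided by.

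The nuclear genes that serve the mitochondrial genome were thinly counted. Of 15 genes that copy and transcribe it, such as Tfam and Polrmt, of 22 that process its RNA, of 9 regulators of mitochondrial biogenesis and of 12 import and chaperone genes, none was abundant enough to be tested. Their summed levels in microglia-gated sums were 2.42 ± 1.09, 5.20 ± 0.95, 2.59 ± 1.26 and 6.26 ± 2.49 UMIs per 10000 (SD, n = 5), and in MHC-class-II-gated sums 1.32 ± 0.96, 4.19 ± 4.43, 1.71 ± 1.82 and 4.25 ± 2.29, with ranges over the libraries that overlap for each list. In neutrophil-gated cells the 15 copying and transcription genes had 0 UMIs in 25126 over 31 cells, which allows a level of up to 1.19 UMIs per 10000 by counting error alone. In microglia-gated cells they had 83 in 320693, or 2.59 per 10000.

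Of 78 genes for mitochondrial ribosomal proteins 3 were tested. Mrpl33, a large subunit protein, was higher in neutrophil-gated sums (log2 fold change 2.93, SE 0.93, edgeR adjusted p = 0.0161). Mrpl52 and Mrps15 passed in no comparison. Both had 0 UMIs in the 31 neutrophil-gated cells, beside 51 and 19 in the microglia-gated cells. Mrpl33 had 19 UMIs in neutrophil-gated and 28 in microglia-gated cells. The edgeR p of Mrpl52 there was 0.0373 unadjusted and 0.107 adjusted, and the adjusted p of Mrps15 was 0.258. The list was at 28.0 ± 8.45 UMIs per 10000 in microglia-gated sums and between 20.8 and 35.4 in the other classes on average.

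Of 77 nuclear-encoded respiratory chain genes 17 were tested, and 2 calls were made in 5 comparisons. Atp5h, a subunit of the ATP synthase, was higher in monocyte-gated sums (log2 fold change 1.98, SE 0.65, edgeR adjusted p = 0.0240), and Ndufa3, of complex I, lower in dendritic-gated sums (edgeR adjusted p = 0.0214). In MHC-class-II-gated sums 0 of 17 passed with edgeR, and 0 had an unadjusted p under 0.05, with a median log2 fold change of -0.07 beside -0.49 for the mitochondrial protein-coding rows. The lowest p-values there were those of Atp5f1 (0.82), Atp5b (-0.69) and Atp5c1 (0.90), with edgeR adjusted p between 0.256 and 0.393. In neutrophil-gated sums the median was 0.52, beside -1.46 for the mitochondrial protein-coding rows and -0.97 for all genes, and 0 of 17 passed with edgeR, while 3 had an unadjusted p under 0.05: Cox4i1 (1.67), Ndufa13 (2.38) and Ndufb5 (2.84). The summed level of the 77 genes was 76.3 ± 8.86 UMIs per 10000 in microglia-gated, 92.7 ± 12.1 in MHC-class-II-gated and 125 ± 33.0 in monocyte-gated sums (SD, n = 5, 5 and 4).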

How the data were processed

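For 5 MARS-seq libraries the authors deposited raw counts of UMIs, not normalized, with a row for each gene and a column for each well. The build, mm10, and bcl2fastq 2.15.0.4 come from the submitters' processing notes. An aligner was not given in the sources used here. No column of the authors' own comparisons was used.

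Wells with 1 cell and at least 500 UMIs outside the ERCC spike-ins were kept, with no doublet caller. Classes were gated on non-mitochondrial UMIs: neutrophil at 5%, microglia at 0.8% with 3 genes, border macrophage, dendritic and monocyte at 0.3% with 2 UMIs, the largest multiple of a threshold winning if 2 times the next, and MHC class II at 2% where no other gate was met. The gates are thresholds on a few genes, not cell types. Sums of at least 5 cells per library and class were fitted together with edgeR 4.0.16 in R 4.3.3 (filterByExpr, TMM, robust quasi-likelihood test, library as a block because a library is 1 plate). The 47 gate genes were left out of the tests, and p-values were adjusted over 785 genes at 0.05. DESeq2 1.42.0 was an alternative. The fit was tested on simulated counts. Shares of UMIs were computed per library and class and given no test.

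Genes near-identical to mitochondrial genes were sought with blastn 2.17.0 in GENCODE transcripts, where the plan had named the genome. Named were all rRNA and protein-coding members, tRNA rows and near-identical nuclear genes with at least 10 UMIs, up to 3 genes of each partner list with the smallest p in a comparison, Gm42418, Gm26917 and the 5 genes most like the members, of which 1 is not reported here. The members and lists were chosen with earlier results of these data known. p-values measure only how differences between classes vary from library to library, with this spread estimated over all classes in the same fit.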

Additional observations from a re-analysis of the deposited data

Results flagged for a closer look

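The mitochondrial share of UMIs in all kept cells of AB5864 was 8.23%, below the 9.65% to 10.1% of the other 4 libraries, and it lay apart from them by Dixon's criterion. It was the single such value among 22 sets of library values tested, and chance flags about 1 in 20 sets. AB5864 also held 15 of the 31 neutrophil-gated cells, the class with the lowest mitochondrial share, while its microglia-gated sum, at 7.92%, lay within the range of the other libraries. The part of either in this value was not tested.

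The 1075 wells with a cell but under 500 UMIs, which no comparison used, held 25.6 mitochondrial UMIs per well, 16.5 times the 1.55 of the empty wells.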

How the results depend on the processing

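Of 384 alternative values of counts and shares, 333 stayed within the stated limits (1.5 times a count, 1 SD of a share), and of 360 of single genes 295 kept their call, 65 lost it and 0 changed sign. With a library left out, genes called numbered 28 to 45 for border-macrophage-gated, 47 to 240 for dendritic-gated, 49 to 184 for monocyte-gated, 48 to 187 for neutrophil-gated and 28 to 179 for MHC-class-II-gated sums, and members called 0 to 0, 0 to 6, 0 to 4, 3 to 7 and 0 to 6. The deep libraries AB5865 and AB5876 gave the lowest counts in the last 4 (28 without AB5865 for MHC-class-II-gated, the others without AB5876).

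For border-macrophage-gated sums 22 genes were called. The count was 41 at a minimum of 300 UMIs, 44 at 1000, 10 with gates 2 times lower, 1 with no filter on low counts, 10 with no replicate block and 105 in the 2 deepest libraries alone. With gates 2 times higher, and in the 2 deepest libraries, 1 member was called. For dendritic-gated sums the count went from 194 to 322 at a minimum of 1000 and 434 in the 2 deepest libraries, and for monocyte-gated sums from 147 to 329 there. Members called in monocyte-gated sums went from 3 to 6 at a minimum of 1000 and in the 2 deepest libraries, 5 with gates 2 times higher, and 1 with no filter or with no replicate block. In MHC-class-II-gated sums genes called went from 142 to 238 at a minimum of 1000, 301 in the 2 deepest libraries, 50 with no filter and 84 with no replicate block. Members called there went from 6 to 3 in the 2 deepest libraries and 0 with no filter, which tested 16253 genes. Without AB5865 or AB5876 border-macrophage-gated sums were left in 1 library and had no fit. Other causes were not tested.

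The mitochondrial share as a median over cells was 8.74% in all kept, 7.67% in microglia-gated and 4.92% in neutrophil-gated cells. At a minimum of 1000 it was 10.5% in border-macrophage-gated and 9.70% in monocyte-gated sums. In neutrophil-gated sums it was 5.25% at a minimum of 300, 5.94% without Gm42418 and Gm26917, 5.31% in the 2 deepest libraries and 5.77% with near-identical nuclear rows counted as mitochondrial. With these rows the rRNA share was 76.6% in border-macrophage-gated, 82.7% in neutrophil-gated and 72.9% in MHC-class-II-gated sums, and at a minimum of 300 it was 76.1% in border-macrophage-gated sums. The 2 deepest libraries and the counting of near-identical rows were chosen after seeing the data. Depth limits the tests to 785 genes.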
